A study of Homo sapiens with 4 samples.

Results

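The short CSE-only intervals are stretches of up to 300 nt that were called m6A-enriched in smoke-exposed bronchial epithelial cells and that had no counterpart in the list made after METTL3 knockdown. An interval of the CSE list was a member when it was at most 300 nt wide and shared not even 1 bp with a knockdown interval on its own strand. The set held 996 of the 5639 short intervals of the CSE list, out of 11038 CSE intervals and 24729 intervals in both lists. That is 17.7% of the short intervals, beside 22.3% of the wider ones (1204 of 5399) and 19.9% of the whole CSE list. The overlap between both lists and the widths chose the members, so these shares describe the set and test nothing.

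N6-methyladenosine (m6A) was profiled by MeRIP-seq, which sequences RNA fragments pulled down by an antibody against m6A next to an input library of the same RNA. The 4 libraries, a pull-down and an input for each of 2 conditions, were made from 16-HBE cells, a line of human bronchial epithelium. Cigarette smoke extract (CSE) was given at 5% to all cells, for 24 h. The first condition carries the genotype label WT, and the second had METTL3 knocked down by siRNA. The labels name neither an unexposed condition nor a control siRNA, so loss of METTL3 and siRNA transfection cannot be told apart. Each condition had 1 list, although the design text speaks of 3 replicates, so no value here has a replicate error and no test between conditions was possible. Expression was not analysed here, so neither the knockdown nor the cell type was checked, and fewer transcripts and less methylation per transcript cannot be told apart.

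METTL3 is the catalytic subunit of the nuclear complex that writes m6A on messenger RNA, where METTL14 helps to bind the RNA and WTAP holds the complex in nuclear speckles. FTO and ALKBH5 are the enzymes known to remove the mark. Reader proteins of the YTH family link it to RNA decay, splicing and translation. In mammalian transcripts m6A is known to gather around stop codons and in long internal exons. The members are described below by position in hg19. Gene names, transcript regions and sequences were not analysed here.

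Most members had low values of the authors' score, a number of unstated scale that is compared only within its own list and is not read here as a strength of enrichment. The median score was 87.2 (exact 95% interval 83.6 to 92.05, n = 996), with quartiles of 64.0475 and 168.4 and a range from 50.06 to 3192.72. The 4643 short CSE intervals that overlapped the knockdown list had a median of 207.5 (196.7 to 216.03). Low scores were not particular to the members. The 1204 wide CSE-only intervals had a median of 131.35 (124.26 to 140.42), also below the CSE list median of 223.8. The lowest score in the CSE list was 50.02, so many members lay close to its floor. All intervals of this kind cover counting error only and treat listed intervals as independent.

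The CSE-only share fell from part to part as the score rose. When the CSE list was cut into parts of 20% by score, members made up 35.2% of the short intervals in the lowest part (493 of 1402, Wilson 95% interval 32.7 to 37.7). The next parts held 19.1%, 11.6% and 7.75%. In the highest part 48 of 802 short intervals were members (5.99%, 4.54 to 7.85). A high score therefore did not always go with a knockdown counterpart: 83 members scored 500 or more, 43 scored 1000 or more, and 17 scored 3100 or more. Of the last group 15 had exactly 3100, a value at which scores piled up. How many of all short CSE intervals reached 500, 1000 or 3100 was not counted.

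**Figure D1:**
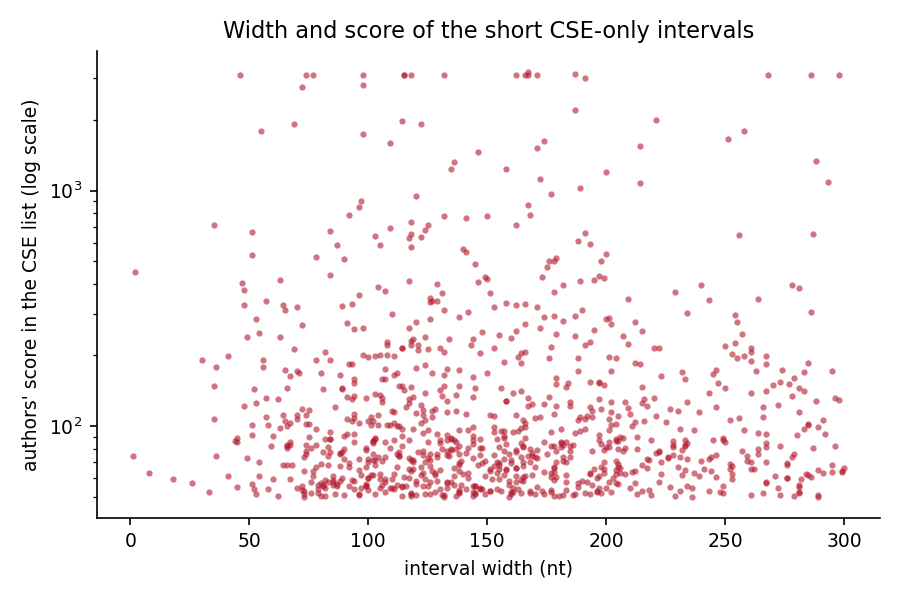
Each point is 1 of the 996 short CSE-only intervals, with its width in nt on the x axis and the authors' score in the CSE list on a log y axis. Most points lie below 168.4, the upper quartile, and 15 points lie in a row at 3100 over many widths.

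**Figure D2:**
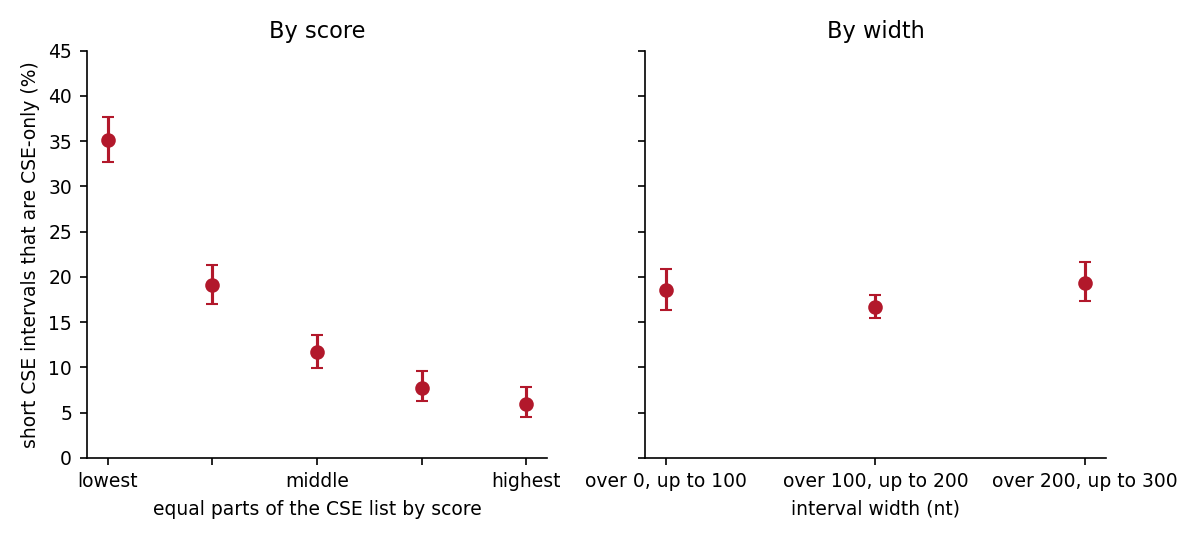
Share of short CSE intervals that were CSE-only, in percent, in parts of 20% of the CSE list by score (left) and by interval width in nt (right), with Wilson 95% intervals as bars. The share runs from 35.2% in the lowest part by score to 5.99% in the highest, and from 16.7% to 19.4% between width classes.

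Width separated members from other short intervals far less than score did. Members had a median width of 150.5 nt (144 to 157), with quartiles of 107 and 200 nt, and the overlapping short intervals had a median of 146 nt (145 to 148). Members made up 18.5% of CSE intervals up to 100 nt (16.4 to 20.9), 16.7% of those over 100 and up to 200 nt (15.4 to 18.0024), and 19.4% of those over 200 and up to 300 nt (17.3 to 21.6). The narrowest member was 1 nt wide. Just inside the width limit, 10 CSE-only intervals of 295 to 300 nt had a median score of 75.25. Just outside it, 8 of 302 to 305 nt had a median score of 124.7.

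Where short intervals overlapped, their ends were nearly always identical in both lists. Of the 4643 short CSE intervals with a knockdown counterpart, 4556 (98.1%, 97.7 to 98.5) had exactly the same start and end there. How the ends were set is not stated in the labels, so ends and widths may not be measured borders of enrichment. At the other side of the border, the member nearest to a knockdown interval lay 8 nt from it (chr17:15466512-15466742, minus strand, score 96.67). The next was 90 nt away (chr19:45458481-45458724, plus strand, score 64.37), and no other member lay within 100 nt. No member overlapped a knockdown interval on the opposite strand. Both strands held similar numbers, with 515 of 996 members on the plus strand (51.7%).

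By median, members lay about as far from the knockdown list as from the other intervals of the CSE list. Both distances can run to the same stretch, since 98.1% of overlapping short CSE intervals had identical ends in both lists. The likeness is therefore partly built in. The median distance to the nearest knockdown interval on the same strand was 11601.5 nt (9631 to 13121), and it ranged from 8 to 3782667 nt. Within 1000 nt lay 118 members (11.8%, 9.985 to 14.002), within 10000 nt 477 (47.9%), and within 100000 nt 808 (81.1%). To the nearest other CSE interval the median was 12352 nt (10606 to 14573). Such an interval lay within 1000 nt for 7.53% of members (6.05 to 9.34) and within 10000 nt for 45.98%. For short CSE intervals that overlapped the knockdown list the median was 4619 nt (4351 to 4897). Of these, 6.98% had another CSE interval within 1000 nt and 66.2% within 10000 nt. For wide CSE-only intervals the shares were 3.99% and 31.6%. Wide CSE-only intervals lay farther from the knockdown list, at a median of 36768 nt (30897 to 42859). Their median to the nearest other CSE interval was likewise similar, at 34466.5 nt (28569 to 41939). The 3383 short intervals listed only with knockdown lay at a median of 11637 nt (10749 to 12718) from the CSE list, and 5.97% of them (5.22 to 6.82) lay within 1000 nt. The knockdown list was the longer one, since 11038 of the 24729 intervals in both lists were CSE intervals. Which share of the short knockdown intervals these 3383 made up was not computed. Members thus resembled their knockdown-only counterparts in median distance, and a larger share of them lay within 1000 nt. These distances run to lists of different length, and how far that accounts for the larger share was not tested.

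**Figure D3:**
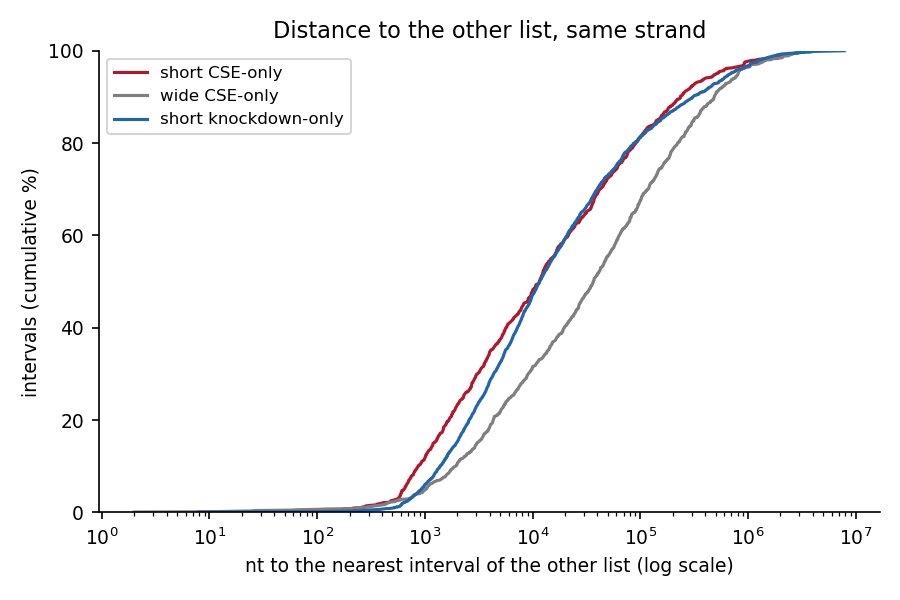
Cumulative share of intervals in percent against the distance in nt, on a log axis, to the closest same-strand interval of the opposite condition. The short CSE-only curve (red) and the short knockdown-only curve (blue) cross the middle near their medians of 11601.5 and 11637 nt, and the wide CSE-only curve (grey) lies to their right with a median of 36768 nt.

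Intervals of both lists were then joined into neighbourhoods wherever gaps on 1 strand were at most 10 kb. Of 7495 neighbourhoods with a CSE interval, 935 held a member (12.5%). In 883 of them there was 1 member, in 45 there were 2, in 5 there were 3 and in 2 there were 4. Most of these neighbourhoods thus held 1 member, and no other set of intervals was counted in this way for comparison.

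The members had 3 kinds of surroundings. Of the 996, 456 members (45.8%, 42.7 to 48.9) were the only listed interval of their neighbourhood. Another 482 (48.4%, 45.3 to 51.5) shared their neighbourhood with a knockdown interval, and 151 (15.2% of all members) lay between knockdown intervals on both sides. The other 58 (5.82%, 4.53 to 7.45) stood beside other CSE-only intervals with no knockdown interval. Any other listed interval was present for 54.2% of members, 38.6% of wide CSE-only intervals and 63.7% of short knockdown-only ones. A knockdown interval was present for 32.3% of wide CSE-only intervals (29.7 to 35.0). Members were thus less often alone than wide CSE-only intervals and more often alone than short knockdown-only ones. The members alone in their neighbourhood had a median score of 80.9 (77.5 to 85.9), and those beside a CSE interval common to both lists had 96.7 (87.2 to 109).

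Where members and shared intervals lay together, the members usually had the lower scores in the CSE list. Of 388 members with a shared CSE interval in the neighbourhood, 289 (74.5%, 69.9 to 78.6) scored below the median of the shared intervals there. Against this, 72 (18.6%, 15.0034 to 22.7) scored above every shared interval beside them. For 246 of the 996 members (24.7%) the knockdown list also held an interval in the neighbourhood that CSE did not, and for 152 (15.3%) shared and knockdown-only intervals were both present.

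Of the 17 members that scored 3100 or more, 13 had a shared interval in their neighbourhood and 4 were alone. Because 15 of them tied at 3100, the 10 described here were taken by score and then by larger width, and 9 of the 10 had a shared interval. The first, on chromosome 10 (chr10:6146894-6147060, plus strand, 167 nt), scored 3192.72. Before it lay 2 intervals common to both lists with identical ends, which scored 230.86 and 597.91 in the CSE list, and after it lay another with 134.4. The member was thus the highest of its neighbourhood in CSE and was missing from the knockdown list between listed intervals. A wide CSE-only interval of 649 nt with 592.29 closed the row.

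The second (chr20:43629808-43629994, plus strand) scored 3133.61 and lay 175 nt from a knockdown interval of 600 nt. That interval started at the same base as a 493 nt CSE interval and reached farther towards the member. The third (chr6:13615559-13615856, plus strand, 298 nt) scored 3100 and lay 168 nt after a knockdown interval of 3369 nt that overlapped nothing in CSE. In both places the knockdown list held an interval within 200 nt of the member.

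The other members among the first 10 all scored exactly 3100, so width chose and ordered them, and 7 narrower members with that score are not described singly. A member on chromosome 17 (chr17:7793889-7794059, plus strand, 171 nt) had 1 shared interval beside it and 3 knockdown-only intervals, which scored 3100, 3100 and 736.61 in the knockdown list. The lists alternated there: a shared interval, a knockdown-only one, the member, then the last 2 knockdown-only ones. On chromosome 12 (chr12:56563313-56563479, minus strand, 167 nt) the member lay between shared intervals that scored 75.72 and 1316.9 in CSE. On chromosome 1 (chr1:70710367-70710498, plus strand, 132 nt) it lay between shared intervals with 517.5 and 680.55 and a knockdown-only interval of 1411 nt.

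A further 3 members had shared intervals on 1 side only. The member at chr19:41773983-41774250 (plus strand) lay 3736 nt before a shared interval with 1527.72 in CSE, and that at chr10:103917806-103917971 (plus strand) lay 3896 nt before a shared one of 1761 nt with 1324.89. The member at chr17:48822013-48822174 (plus strand) lay 906 nt before a shared interval that also scored 3100. The remaining member of the 10 (chr19:16177831-16178116, plus strand, 286 nt) was alone, 50919 nt from the nearest knockdown interval.

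Among the 178 members that reached the median score of the CSE list, 223.8, the 5 farthest from the knockdown list differed in how far they lay from other CSE intervals. The farthest (chr9:92008477-92008570, minus strand, score 258.71) was 2115339 nt from a knockdown interval but 11695 nt from another CSE interval. The next (chr7:158896448-158896545, minus strand) scored 1736.55 and had neither a knockdown interval within 2097880 nt nor a CSE interval within 2093100 nt. The others were chr7:66458204-66458404 (minus strand, score 288.48), chrX:108976368-108976621 (minus strand, score 295.34) and chrX:2641355-2641405 (plus strand, score 664.44), at 2018289, 2016736 and 919943 nt.

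The last of these belonged to a neighbourhood on chromosome X with 4 members and no other interval, 1 of the 2 neighbourhoods with most members. Its members were 69, 48, 51 and 114 nt wide and scored 1911, 378.03, 664.44 and 214.44 along 6018 nt. This stretch is part of the region that X and Y share, where reads can be placed on either chromosome. No knockdown interval lay at the matching place on Y, 50000 nt lower in hg19. Of the 7 members in the shared region, 1 on Y (score 82.29) did have a knockdown interval at its X copy, with a score of 81 there.

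The other neighbourhood with 4 members lay on chromosome 19 (chr19:9011322-9026315, minus strand, 14994 nt long) and also held nothing else. Its members scored 53.09, 51.14, 134.19 and 96.32, each below the lowest score of the 4 on X. Knockdown intervals on the same strand lay beyond the 10 kb limit, at higher positions, so its isolation depends on that limit. Whether both stretches belong to 1 transcript was not analysed. The stretch chr19:9043426-9091819 (minus strand) held 4 knockdown intervals, 2 shared CSE intervals and 1 further member. Neighbourhoods with members and without any knockdown interval numbered 492 of 935 (52.6%, 49.4 to 55.8), but only 36 of them held 2 or more CSE intervals and 9 held 3 or more. A further case, chosen after its values were seen, lay on chromosome 17: a 187 nt member (chr17:4923787-4923973, plus strand, score 2199.99) was followed by wide CSE-only intervals of 618 and 3220 nt with 410.36 and 2303.5. Here too, knockdown intervals lay beyond the 10 kb limit. The stretch chr17:4905759-4910379 (plus strand) held 2 knockdown-only intervals and 1 other member, with a score of 1455.58.

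There were 5 neighbourhoods with 3 members, ordered here by summed score. The last 2 of them, on chromosome 19 (minus strand, 3537 nt) and chromosome 20 (plus strand, 6625 nt), held no other interval, with scores of 57.78, 81.62 and 92.05 in the former and 57.61, 82.06 and 62.98 in the latter. The first 3 held shared intervals as well. On chromosome 9 (plus strand, 7128 nt) the members followed one another, with 94.34, 269.21 and 501.88, between shared intervals that scored 185.16 and 52.17 in CSE. Here members scored higher than their last neighbour, and 2 of them higher than both. On chromosome 1 (minus strand, 40523 nt) members with 426.97, 62.46 and 215.12 were scattered among 8 shared intervals, which scored from 54.37 to 862.39 in CSE, and 3 knockdown-only ones. On chromosome 6 (minus strand, 39208 nt) members with 60.6, 191.22 and 70.56 stood among 9 shared intervals, of which the highest reached 3100, and 1 knockdown-only interval.

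**Figure D4:**
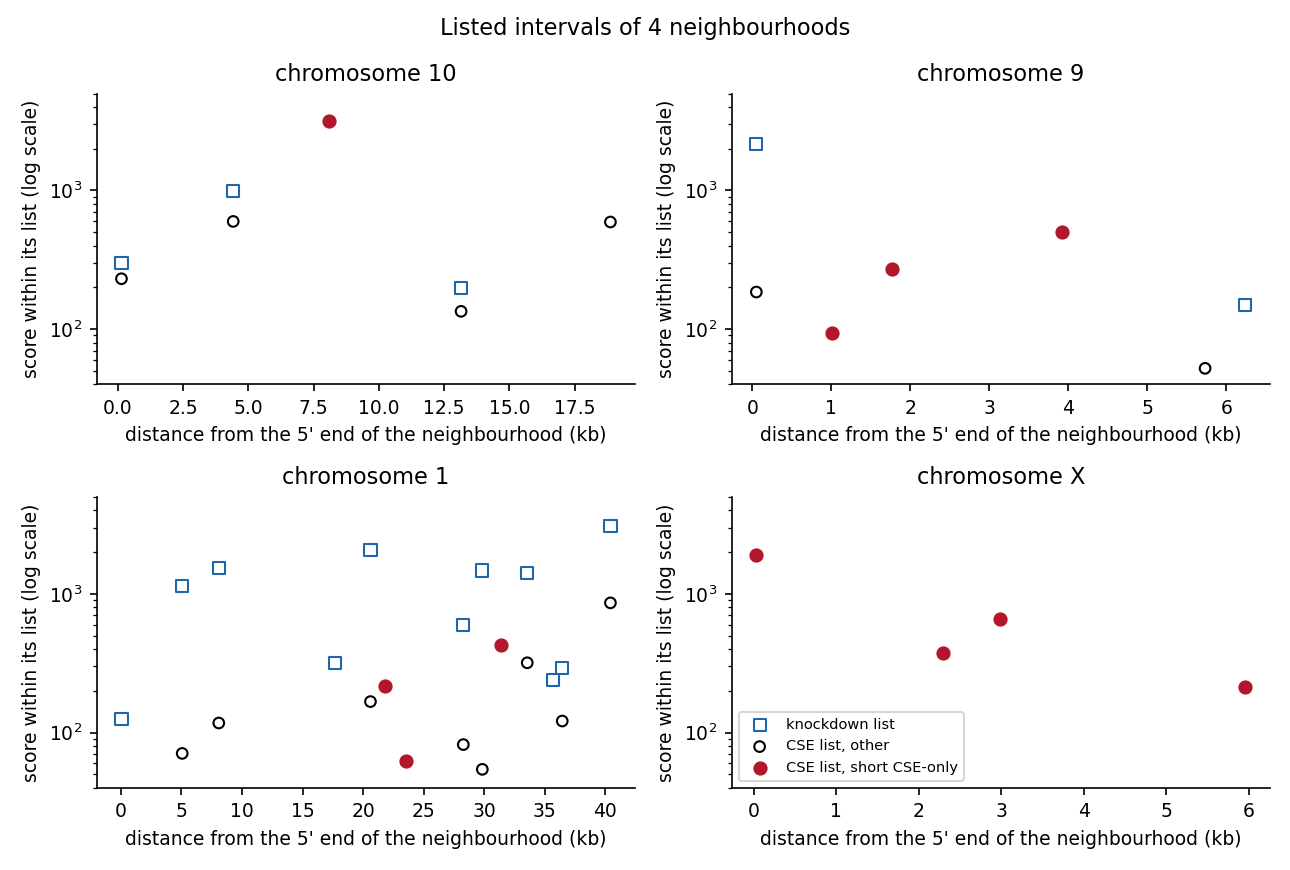
Listed intervals of 4 neighbourhoods, with the distance in kb from the 5′ end of the neighbourhood on the x axis and the authors' score within each list on a log y axis, where blue squares are the knockdown list, open circles other CSE intervals and red points short CSE-only intervals. The red point at 3192.72 on chromosome 10 and the 3 on chromosome 9 lie between intervals of both lists, those on chromosome 1 lie among shared and knockdown-only intervals, and the 4 on chromosome X stand with no square.

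By chromosome, members made up from 12.3% of the short CSE intervals on chromosome 2 (55 of 448, 9.55 to 15.6) to 24.4% on chromosome 22 (29 of 119, 17.5 to 32.8), leaving out chromosome Y with 3 of 9. Chromosomes 19 (70 of 291, 24.1%, 19.5 to 29.3) and 17 (64 of 270, 23.7%, 19.02 to 29.1) were near the upper end. The ranges of chromosomes 2 and 19 do not overlap, but these chromosomes were picked from all for their shares, and no test was made.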

How the data were processed

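MeRIP-seq intervals of 2 conditions were analysed, 1 list each. The submitters' processing notes name HISAT2 2.0.4 and the build hg19. The score in each deposited list is the authors' value, of unstated scale and at least 50.02 in both lists. No caller settings, read depths or replicate lists were used here, so no test was run. Input libraries entered only through the authors' calls.

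Positions count from 1. Overlap needed 1 bp on the same strand, and neighbourhoods joined intervals of both lists at gaps up to 10 kb. Shares carry Wilson and medians exact binomial 95% intervals. Overlap and joining were tested on simulated data. Planned results on motifs, transcript regions, genes and gene lists needed hg19 sequence and annotation and were not run, and neighbourhoods stand in for genes, as planned. Named are the 10 members of highest score, the 5 farthest from a knockdown interval with a score in the upper part of the CSE list, and the 5 neighbourhoods with most members. Members and lists were chosen with earlier results of these data known. Python 3.11.15, pandas 2.3.3 and SciPy 1.17.1 were used.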

Additional observations from a re-analysis of the deposited data

How the results depend on the processing

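Of 26 recomputed values, 19 kept within the interval of the reported value, or for numbers within 1.5 times of it, and 7 did not. In the upper 50% of the CSE list by score 178 members in 172 neighbourhoods were left, with a median score of 429.4 and 24.2% within 1000 nt of a knockdown interval. The median width was 127 nt with a limit of 200 nt and 165 nt with a limit of 400 nt. Within 10000 nt of a knockdown interval lay 47.9%. The changes in number, width, score and distance limit follow from the limits themselves, and the cause of the larger share within 1000 nt at higher scores was not tested. Overlap on either strand left 996 members, exclusion within 100 nt 994, and reciprocal overlap of 50% 1008. Alternatives chosen after seeing the data gave 995 members with X and Y copies as 1, and 958 or 882 neighbourhoods with gaps up to 5000 or 50000 nt. Alternatives on motifs, transcript regions and gene bodies were not run. No paired analysis was possible because each condition had 1 list and no result came from a test. Depth is unknown, so a missing interval may be one that was not called.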
